A study of Mus musculus with 12 samples.

Results

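The genes followed here through spinal surgery in mice mark tendon or build its matrix: *Scx*, *Mkx*, *Tnmd*, *Thbs4* and *Tnxb*. They were taken by name from a table of 18996 genes, so that 5 of 18996 genes are described here, and all 5 passed the filter on low counts that left 14765 genes for testing. Bulk RNA sequencing of BALB/c mice, received at 5 to 7 weeks of age, gave 12 libraries in 3 groups of 4. The study as a whole used mice of both sexes, and the labels give no sex for these libraries. No operation mice gave soft tissue from beside the spine. In SHAM mice soft tissue beside the spine had been removed without excision of the laminae. Laminectomy mice had been operated at the laminae of T12 to L2 as well, and in both surgical groups the tissue taken on day 7 contained scar. The methods of the study give 3 mice per group, whereas the labels give 4 libraries per group, and all 4 were used. It is therefore open whether each library is a separate animal, n counts libraries, and p-values, which measure the spread between libraries, are too small if any of them share an animal. The labels name no transgene and no drug for these groups. Whether a lower level in such whole-tissue RNA means fewer cells of a type or less RNA per cell cannot be told apart.

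Tendon cells are specified by a small set of transcription factors and lay down a collagen-rich, tension-bearing matrix. Scleraxis (*Scx*), a basic helix-loop-helix factor that binds E-box motifs, marks tendon progenitors and ligament cells, and Mohawk (*Mkx*), an atypical homeobox factor related to the Iroquois family, maintains collagen synthesis in maturing tendon. Tenomodulin (*Tnmd*) is a transmembrane glycoprotein of differentiated tendon cells and a known target of scleraxis. Thrombospondin 4 (*Thbs4*) is a pentameric matrix protein of tendon and muscle attachment sites, and tenascin X (*Tnxb*) is a large glycoprotein of loose and dense connective tissue that binds collagen fibrils. Paraspinal tissue holds tendon at muscle attachments, together with fascia and ligament.

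The sequences before the starts of *Tnmd*, *Thbs4* and *Tnxb* are shown because scleraxis, another of the 5, recognises E-boxes. They are given 5′ to 3′ on the strand of the gene, from RefSeq promoters of build GRCm38.p6, and end at the last base outside the GENCODE gene. Capitals mark the E-box CANNTG, a palindrome in its fixed bases that reads alike on both strands. The *Tnmd* stretch is chrX:133850758-133850979, that of *Thbs4* chr13:92794819-92795068 and that of *Tnxb* chr17:34670285-34670534.
Tnmd: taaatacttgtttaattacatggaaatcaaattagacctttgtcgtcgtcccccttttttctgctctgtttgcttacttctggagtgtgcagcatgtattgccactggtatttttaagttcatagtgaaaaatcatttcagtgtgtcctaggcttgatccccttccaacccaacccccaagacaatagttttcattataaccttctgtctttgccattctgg
Thbs4: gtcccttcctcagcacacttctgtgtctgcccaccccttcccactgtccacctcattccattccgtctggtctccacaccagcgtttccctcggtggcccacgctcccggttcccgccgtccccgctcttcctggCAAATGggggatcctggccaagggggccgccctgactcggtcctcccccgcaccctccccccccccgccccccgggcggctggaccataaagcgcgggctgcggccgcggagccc
Tnxb: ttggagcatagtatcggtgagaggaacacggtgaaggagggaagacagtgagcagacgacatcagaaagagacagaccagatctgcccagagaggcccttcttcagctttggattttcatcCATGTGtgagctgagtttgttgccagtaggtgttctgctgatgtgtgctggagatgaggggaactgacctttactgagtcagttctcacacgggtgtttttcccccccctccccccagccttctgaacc
In the 250 bases before the RefSeq start, *Tnmd* held no E-box, *Thbs4* held 1 (CAAATG, 115 bases before the start) and *Tnxb* held 1 (CATGTG, 129 bases before the start). An E-box stood in 66.2% of 32851 promoters of that length, with a median of 1. The SMAD motif CAGAC, read on both strands, occurred at 2 positions in *Thbs4* and at 2 in *Tnxb* and was not found in *Tnmd*, where 42.2% of all promoters hold it at least once and 11.7% hold 2 or more. G and C made up 70.8% of the *Thbs4* window, 52.4% of the *Tnxb* window and 38.4% of the *Tnmd* window. These matches describe letters and not binding.

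The 5 genes lie on 5 chromosomes of GRCm38. *Scx* (gene identifier 20289) occupies chr15:76457452-76459458 on the plus strand, inside a stretch of *Bop1*, which is transcribed from the opposite strand and shares 0 exon bases with it. *Mkx* (210719, chr18:6934518-7004780, minus strand) shares 201 exon bases, 4.91% of its exons, with a sense-overlapping transcript with a clone name that the table does not list, so a small part of its reads cannot be assigned with certainty. *Tnmd* (64103) lies at chrX:133850980-133865577 on the plus strand and *Thbs4* (21828) at chr13:92751590-92794818 on the minus strand. *Tnxb* (81877, chr17:34670535-34719815, plus strand) overlaps a pseudogene, *Cyp21a2-ps*, in 3 exon bases on the opposite strand, and the small nuclear RNA gene *Gm24389* lies in one of its introns. *Bop1* was at 34.0 to 53.2 CPM over all 12 libraries, where CPM are normalised counts on the scale of each library's effective size.

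Sequencing depth was even, at 16802989 to 18077868 counts per library. Markers of mature skeletal muscle summed to between 105472 and 149877 CPM without operation, to 2547 to 9567 CPM after SHAM surgery and to 3247 to 14117 CPM after laminectomy. Of these markers 12 of 12 fell in each surgical group, where 25.1% of all genes fell in SHAM and 24.4% in Laminectomy libraries. Several libraries stood apart from their group in a marker list. No operation replicate 2 had 579 CPM summed over bone markers, while the other No operation libraries had 26.8 to 183 CPM. It was also the lowest of its group for *Scx*, *Thbs4* and *Tnxb*. SHAM replicate 1 had 5.06 CPM summed over 8 markers of regenerating muscle, while the other SHAM libraries had 1251 to 2158 CPM. Laminectomy replicate 1 had 4.87 CPM summed over 6 adipocyte markers, while the other Laminectomy libraries had 68.1 to 168 CPM. SHAM replicate 3 had 1540 CPM of the same adipocyte markers, where replicates 1, 2 and 4 lay between 39.4 and 235 CPM, and Laminectomy replicate 2 had 912 CPM of Schwann cell and perineurial markers, against 177 to 295 CPM in its group mates. SHAM replicate 1 and Laminectomy replicate 1, which were also lowest for several of the 5 genes, were left out in alternative fits.

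Against No operation, *Mkx* and *Tnmd* fell in SHAM libraries and *Tnxb* fell in Laminectomy libraries, whereas *Scx* and *Thbs4* passed the test in neither comparison. A gene was called when its adjusted p (quasi-likelihood test of edgeR, with Benjamini-Hochberg adjustment over all 14765 genes) was below 0.05 and its log2 fold change exceeded 0.5 in size. In SHAM libraries 2 of 5 genes fell and 0 rose, against 50.8% of all genes called in either direction and 25.1% called lower. In Laminectomy libraries 1 of 5 fell and 0 rose, against 48.6% called in either direction and 24.4% called lower. Neither count is read as a departure from this background, and the comparisons share the 4 No operation libraries. Between Laminectomy and SHAM 0 of 5 were called, where the background is 0.0%. In that comparison edgeR called 0 genes, 2359 genes had an unadjusted p below 0.05, and DESeq2 called 696 genes (2.11% of 15997 higher and 2.24% lower), none of the 5 among them. The median log2 fold change of the 5 was −0.99 in SHAM and −0.73 in Laminectomy libraries, beside medians of −0.002 and 0.009 over all genes.

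**Figure D1:**
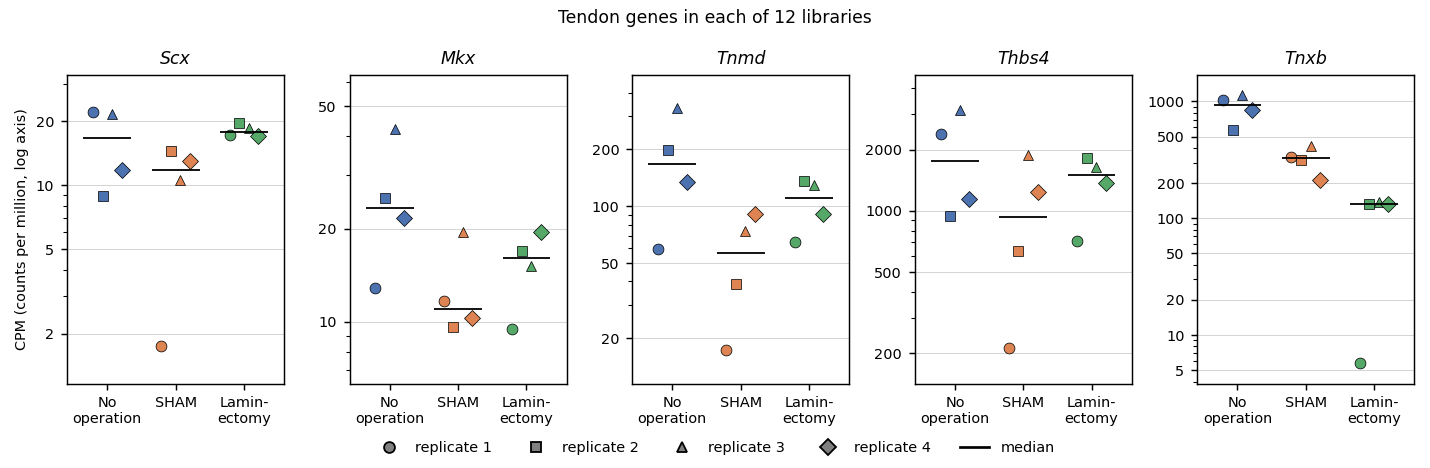
CPM on log axes (vertical) of the 5 genes in each of 12 libraries, by group (horizontal). Each symbol is a library, its shape the replicate number, and the line the group median. The 3 groups of *Tnxb* stand one below the other without overlap, from 573 to 1132 CPM in No operation libraries down to 5.77 to 137 CPM in Laminectomy libraries, while those of *Mkx*, *Tnmd* and *Thbs4* overlap.

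*Scx*, which encodes the factor that marks tendon progenitors, reached 22.2, 8.94, 21.6 and 11.8 CPM in replicates 1 to 4 of the No operation group. SHAM replicates were at 1.74, 14.5, 10.6 and 13.0 CPM, and Laminectomy replicates at 17.2, 19.7, 18.6 and 17.0 CPM. No operation libraries split into a higher and a lower pair that span the range of the Laminectomy libraries, and SHAM replicate 1, with 31 reads, lay far below every other library. The mean was 16.1 ± 6.78 CPM (SD, n = 4) without operation, 9.95 ± 5.70 CPM after SHAM surgery and 18.1 ± 1.29 CPM after laminectomy. Neither difference from No operation passed the test, with a log2 fold change of −0.70 in SHAM (standard error 0.485, edgeR adjusted p = 0.231) and of 0.17 in Laminectomy libraries (standard error 0.479, edgeR adjusted p = 0.780). Without SHAM replicate 1 the SHAM value was −0.34 (edgeR adjusted p = 0.314). All 4 Laminectomy libraries were above all 4 SHAM libraries, as were 5.05% of all genes tested, yet the difference of 0.86 (95% confidence interval −0.19 to 1.92) did not pass (edgeR adjusted p = 0.406). It was 0.53 without SHAM replicate 1 and Laminectomy replicate 1 (edgeR adjusted p = 0.520). *Bop1*, whose locus contains *Scx*, was at 37.3 CPM in SHAM replicate 1, within the range of the other libraries.

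*Mkx*, the Mohawk factor gene, stood at 12.9, 25.1, 42.2 and 21.7 CPM without operation. SHAM libraries had 11.7, 9.63, 19.5 and 10.3 CPM and Laminectomy libraries 9.48, 17.0, 15.2 and 19.6 CPM. No operation replicate 3 was the highest library of all, and 3 of 4 SHAM libraries but 1 of 4 Laminectomy libraries lay below the lowest No operation library. The gene fell in SHAM libraries by 0.99 on the log2 scale (standard error 0.353, edgeR adjusted p = 0.0288), to 12.8 ± 4.58 CPM from 25.5 ± 12.3 CPM (SD, n = 4). This call was lost on leaving out No operation replicate 3 (log2 fold change −0.64, edgeR adjusted p = 0.112), SHAM replicate 1 (−0.95, edgeR adjusted p = 0.0678), SHAM replicate 2 (−0.88, edgeR adjusted p = 0.0765) or SHAM replicate 4 (−0.90, edgeR adjusted p = 0.0735), and when libraries were scaled by their totals alone (−0.74, edgeR adjusted p = 0.0932). In Laminectomy libraries the mean was 15.3 ± 4.29 CPM and the log2 fold change −0.73 (standard error 0.351, edgeR adjusted p = 0.0907), which passed without No operation replicate 1 (−0.95, edgeR adjusted p = 0.0258) but was −0.38 without No operation replicate 3 (edgeR adjusted p = 0.336) and −0.56 without Laminectomy replicate 1 (edgeR adjusted p = 0.211). Laminectomy and SHAM libraries differed by 0.26, with an interval of −0.51 to 1.03 that includes no change (edgeR adjusted p = 0.742). On leaving out each library in turn this difference ran from 0.12 to 0.54.

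*Tnmd*, the gene of the mature tendon cell glycoprotein, fell in SHAM libraries. No operation libraries had 59.3, 199, 332 and 134 CPM. After SHAM surgery the values were 17.3, 38.7, 73.7 and 91.3 CPM, and after laminectomy 65.0, 135, 130 and 90.8 CPM. No operation replicate 1 fell within the SHAM range, whereas the other 3 No operation libraries lay above every SHAM library. The mean was 55.2 ± 33.4 CPM in SHAM against 181 ± 116 CPM in No operation libraries (SD, n = 4), 3.28-fold lower by the fitted log2 fold change of −1.71 (standard error 0.556, edgeR adjusted p = 0.0187). Without SHAM replicate 1 the change was −1.42 and still passed (edgeR adjusted p = 0.0379), but it did not pass without No operation replicate 3 (−1.25, edgeR adjusted p = 0.0693) or SHAM replicate 2 (−1.58, edgeR adjusted p = 0.0522). Laminectomy libraries, at 105 ± 33.3 CPM, lay wholly inside the No operation range (log2 fold change −0.79, standard error 0.544, edgeR adjusted p = 0.232). That value was −1.08 without No operation replicate 1 (edgeR adjusted p = 0.0878), −0.32 without No operation replicate 3 (edgeR adjusted p = 0.639) and −0.61 without Laminectomy replicate 1 (edgeR adjusted p = 0.408). The difference between Laminectomy and SHAM libraries was 0.93, with an interval of −0.27 to 2.12 (edgeR adjusted p = 0.426), and 0.79 without SHAM replicate 1 and Laminectomy replicate 1 (edgeR adjusted p = 0.570).

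*Thbs4*, which encodes a matrix protein of tendon and muscle attachments, had the highest level of the 5 and a wide spread in every group. Unoperated libraries were at 2388, 945, 3112 and 1138 CPM, SHAM libraries at 213, 633, 1871 and 1239 CPM and Laminectomy libraries at 709, 1816, 1642 and 1366 CPM. All 3 groups overlapped, and SHAM replicate 1 was again the lowest library. The means of 1896 ± 1033, 989 ± 723 and 1383 ± 486 CPM (SD, n = 4) did not separate by the test. The log2 fold change was −0.94 in SHAM (95% confidence interval −2.23 to 0.35, edgeR adjusted p = 0.185) and −0.45 in Laminectomy libraries (−1.73 to 0.83, edgeR adjusted p = 0.525). Between the surgical groups it was 0.48 (−0.80 to 1.76, edgeR adjusted p = 0.710). Without SHAM replicate 1 the SHAM value was −0.59 (edgeR adjusted p = 0.328), and without SHAM replicate 3 it was −1.45 (edgeR adjusted p = 0.0613). On leaving out each library in turn the Laminectomy value ran from −0.68 to −0.11, the latter without No operation replicate 3 (edgeR adjusted p = 0.895), and was −0.24 without Laminectomy replicate 1 (edgeR adjusted p = 0.770). The difference between the surgical groups ran from 0.15 without SHAM replicate 1 to 0.99 without SHAM replicate 3 (edgeR adjusted p = 0.947 and 0.435), and without both replicates 1 it was 0.35 (edgeR adjusted p = 0.816).

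*Tnxb*, the tenascin X gene, showed the largest decrease among the 5 in Laminectomy libraries. In SHAM libraries *Tnmd* had the larger decrease (log2 fold change −1.71, against −1.48 for *Tnxb*). *Tnxb* was the only one of the 5 in which no group overlapped another. Without operation the 4 libraries were at 1030, 573, 1132 and 842 CPM. SHAM libraries were at 337, 314, 418 and 211 CPM, each below the lowest No operation library. Laminectomy libraries were at 5.77, 133, 137 and 132 CPM, each below the lowest SHAM library, and replicate 1, with 109 reads, was far under its 3 group mates. Non-overlap in the lower direction was common, at 27.8% of all genes for SHAM and 29.0% for Laminectomy against No operation, and less so for Laminectomy against SHAM, at 5.07%. In the higher direction, which 26.7% and 27.0% of all genes took without overlap in SHAM and Laminectomy against No operation, 0 of the 5 were found. The log2 fold change in Laminectomy libraries was −3.14 (standard error 0.697, edgeR adjusted p = 0.00243), 8.79-fold lower, with means of 102 ± 64.0 against 894 ± 245 CPM (SD, n = 4). That call held under every alternative tried, and without Laminectomy replicate 1 the value was −2.74 (edgeR adjusted p = 4.55e-05).

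In SHAM libraries *Tnxb* averaged 320 ± 85.6 CPM (SD, n = 4), and its log2 fold change of −1.48 (standard error 0.655) missed the threshold when all 12 libraries shared the estimate of spread (edgeR adjusted p = 0.0678). The comparison passed when Laminectomy replicate 1 was left out of the fit (edgeR adjusted p = 0.00037), when No operation and SHAM libraries were fitted alone (edgeR adjusted p = 0.00191) and with DESeq2 (adjusted p = 0.0298). Laminectomy libraries were lower than SHAM libraries by a log2 fold change of −1.65 (95% confidence interval −3.10 to −0.21), with an edgeR p of 0.0281 before and an adjusted p of 0.250 after correction over all genes. Without SHAM replicate 1 and Laminectomy replicate 1 this difference was −1.25 (edgeR adjusted p = 0.191).

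**Figure D2:**
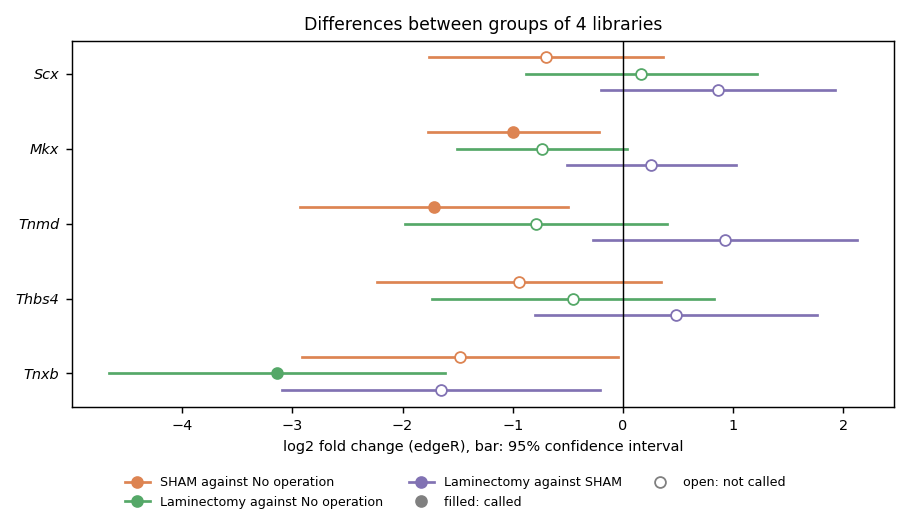
Log2 fold change of each gene (horizontal) in the 3 comparisons, as fitted by edgeR over 4 libraries a group. Points are estimates, bars 95% confidence intervals, filled points called genes and open points genes that were not called. Filled points are *Mkx* and *Tnmd* for SHAM and *Tnxb* for Laminectomy against No operation, and every interval for Laminectomy against SHAM but that of *Tnxb* includes 0.

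The 5 genes did not order the libraries alike. Within the No operation group, replicates 1 and 3 were the highest for *Scx*, *Thbs4* and *Tnxb*, while replicate 1 was the lowest for *Mkx* and *Tnmd*. SHAM replicate 1 was the lowest of its group for *Scx*, *Tnmd* and *Thbs4* but the second highest for *Mkx* and *Tnxb*. Laminectomy replicate 1 was the lowest for *Mkx*, *Tnmd*, *Thbs4* and *Tnxb* but not for *Scx*. Per kilobase of exon, *Tnmd* stood at 3.96 to 33.1 times the level of *Scx* in No operation libraries, 3.96 to 14.7 times in SHAM libraries and 5.60 to 10.3 times in Laminectomy libraries, so the ratio of this target to its factor overlapped between all groups.

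Levels of different genes were compared per kilobase of exon. In No operation libraries the order was *Thbs4* at a mean of 576 CPM per kilobase, *Tnmd* at 134, *Tnxb* at 73.2, *Scx* at 8.04 and *Mkx* at 6.22 CPM per kilobase. Of these neighbours *Tnmd* and *Tnxb* overlapped, as did *Scx* and *Mkx*, and the other neighbours did not. SHAM libraries kept that order of means, with *Thbs4* at 301, *Tnmd* at 40.8, *Tnxb* at 26.2, *Scx* at 4.96 and *Mkx* at 3.12 CPM per kilobase, and there only *Tnxb* and *Scx* were without overlap. In Laminectomy libraries *Thbs4* was at 421, *Tnmd* at 77.7, *Scx* at 9.04, *Tnxb* at 8.33 and *Mkx* at 3.74 CPM per kilobase on average. The place of *Tnxb* below *Scx* rests on replicate 1, at 0.473 CPM per kilobase, since the other 3 libraries had *Tnxb* at 10.8 to 11.2 CPM per kilobase, above every value of *Scx* (8.47 to 9.84) and *Mkx* (2.31 to 4.79) in that group. Each matrix gene was above both transcription factor genes in every No operation library.

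Tenascin X was compared with the other tenascins, tenascin C (*Tnc*), a matrix protein made in development and wounds, and tenascin W (*Tnn*), found around bone and in injured tissue. *Tnxb* made up 45.8 to 78.7% of the summed tenascin level per kilobase in No operation libraries, 8.09 to 15.9% in SHAM libraries and 0.141 to 5.17% in Laminectomy libraries. The groups did not overlap. *Tnc* held 21.2 to 46.2%, 66.2 to 75.0% and 63.2 to 69.3% in the same order, and *Tnn* 0.055 to 8.29%, 11.8 to 24.1% and 25.8 to 36.6%. In absolute terms *Tnc* rose by 1.63 on the log2 scale in SHAM (edgeR adjusted p = 0.00122) and by 1.83 in Laminectomy libraries (edgeR adjusted p = 0.00068). *Tnn* rose by 2.48 (edgeR adjusted p = 0.0292) and by 3.63 (edgeR adjusted p = 0.00561). *Tnr*, a tenascin of the nervous system, stayed at or below 0.304 CPM per kilobase in every library.

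Among thrombospondins *Thbs4* held 56.6 to 70.6% of the summed level per kilobase in No operation libraries, 13.6 to 58.1% in SHAM libraries and 36.3 to 60.7% in Laminectomy libraries. The lowest share in each surgical group belonged to replicate 1. Cartilage oligomeric matrix protein (*Comp*), the closest relative of thrombospondin 4 and also a tendon matrix gene, fell in SHAM libraries (log2 fold change −2.39, edgeR adjusted p = 0.0132) and was at −0.44 in Laminectomy libraries (edgeR adjusted p = 0.604). *Thbs3* rose in SHAM libraries by 0.70 on the log2 scale (edgeR adjusted p = 0.0285) and was at 0.56 in Laminectomy libraries (edgeR adjusted p = 0.0680). Counted together, 3 of 8 relatives of the matrix members rose and 1 fell in SHAM libraries, and 2 rose and 0 fell in Laminectomy libraries. Over all genes 25.7% were called higher and 25.1% lower in SHAM libraries, and 24.2% and 24.4% in Laminectomy libraries. Chondromodulin (*Cnmd*), the relative of tenomodulin, was at −2.16 in SHAM (edgeR adjusted p = 0.0860) and 0.51 in Laminectomy libraries (edgeR adjusted p = 0.661).

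**Figure D3:**
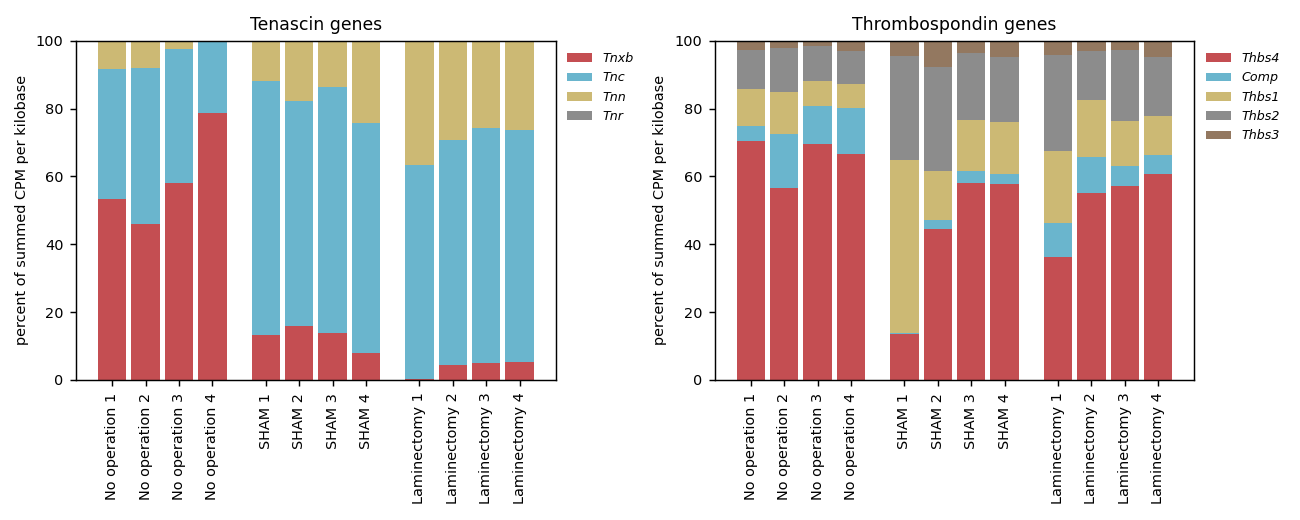
Percent of the summed CPM per kilobase of exon (vertical, from 0 to 100) held by each tenascin gene (left) and each thrombospondin gene (right) in each of 12 libraries (horizontal). The *Tnxb* share is 45.8 to 78.7% in No operation libraries and at most 15.9% in every library after surgery, while the *Thbs4* shares of the groups overlap.

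Other transcription factors tied to tendon moved in both directions. Of 7, 2 fell and 1 rose in SHAM libraries, and 2 fell and 2 rose in Laminectomy libraries, beside 25.1% and 25.7% of all genes lower and higher in SHAM and 24.4% and 24.2% in Laminectomy libraries. Without SHAM replicate 1 and Laminectomy replicate 1, 2 fell and 2 rose in each, beside 23.1% of all genes lower and 25.6% higher in SHAM and 22.8% and 22.9% in Laminectomy libraries under that fit. *Eya1*, which encodes a transcriptional coactivator of muscle and tendon development, fell by 2.18 on the log2 scale in SHAM libraries (edgeR adjusted p = 0.00068) and by 1.19 in Laminectomy libraries (edgeR adjusted p = 0.0200). *Etv4*, an ETS factor downstream of fibroblast growth factor, fell by 1.07 and 0.85 (edgeR adjusted p = 0.000272 and 0.00136). *Egr2*, an immediate early gene that promotes tendon collagen expression, rose by 2.24 in SHAM (edgeR adjusted p = 0.000229) and 2.45 in Laminectomy libraries (edgeR adjusted p = 0.000157), and *Egr1* rose by 1.57 in Laminectomy libraries (edgeR adjusted p = 0.0300), beside 1.26 in SHAM libraries (edgeR adjusted p = 0.0670).

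Among relatives of scleraxis and Mohawk, the paraxis gene *Tcf15* fell in both surgical groups (log2 fold changes −2.44 and −3.37, edgeR adjusted p = 0.000375 and 7.68e-05). *Irx1* and *Irx2* of the Iroquois family rose in SHAM libraries by 3.29 (edgeR adjusted p = 0.000560) and 2.51 (edgeR adjusted p = 0.0104), and *Twist2*, a mesenchymal helix-loop-helix gene, by 1.86 (edgeR adjusted p = 0.000233). In Laminectomy libraries these 3 were at 0.34, −0.52 and 0.065 (edgeR adjusted p = 0.638, 0.560 and 0.861). *Msc* and *Irx3* rose in Laminectomy libraries by 1.71 (edgeR adjusted p = 0.0146) and 0.74 (edgeR adjusted p = 0.0419), beside 1.16 and 0.14 in SHAM libraries (edgeR adjusted p = 0.0711 and 0.683). In all, 3 of 8 tested members of this list rose and 1 fell in SHAM libraries, and 2 rose and 1 fell in Laminectomy libraries (4 and 1, and 1 and 1, without SHAM replicate 1 and Laminectomy replicate 1), where 25.7% and 25.1% of all genes were called higher and lower in SHAM and 24.2% and 24.4% in Laminectomy libraries. The list has 11 genes, and 3 of them did not pass the filter.

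The remaining tendon matrix genes moved in both directions. Of 24, 10 rose and 9 fell in SHAM libraries (median log2 fold change 0.14), and 12 rose and 8 fell in Laminectomy libraries (median 0.63), beside 25.7% and 24.2% of all genes called higher and 25.1% and 24.4% called lower. The medians moved with the processing, to −0.14 and 0.25 with DESeq2 over 23 of the genes and to 0.36 and 0.81 without SHAM replicate 1 and Laminectomy replicate 1, so that the SHAM median has no settled sign. *Angptl7*, a secreted protein gene of fibrous tissue, fell by 6.22 and 4.93 on the log2 scale (edgeR adjusted p = 0.000218 and 0.000749). *Cilp2* fell by 4.65 and 3.43 (edgeR adjusted p = 0.000269 and 0.00143), and *Kera*, which encodes the fibril-associated proteoglycan keratocan, by 3.70 and 3.11 (edgeR adjusted p = 0.00729 and 0.0162). *Col3a1* rose by 2.84 and 2.17 (edgeR adjusted p = 0.00197 and 0.00888) and *Col5a1* by 2.39 and 2.52 (edgeR adjusted p = 0.000652 and 0.000538). *Lox*, which crosslinks collagen, rose by 2.50 and 2.13 in SHAM and Laminectomy libraries (edgeR adjusted p = 0.00137 and 0.00368), and *Col5a2* by 2.13 and 2.20 in the same order (edgeR adjusted p = 0.000551 and 0.000517). *Tnxb*, *Tnmd* and *Mkx* moved in the direction of *Kera* and *Cilp2* wherever they were called. With library totals alone as scaling, 12 rose and 8 fell in SHAM libraries, where 35.1% of all genes were called higher and 18.1% lower, and 12 rose and 7 fell in Laminectomy libraries, where the shares were 37.0% and 15.9%.

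**Figure D4:**
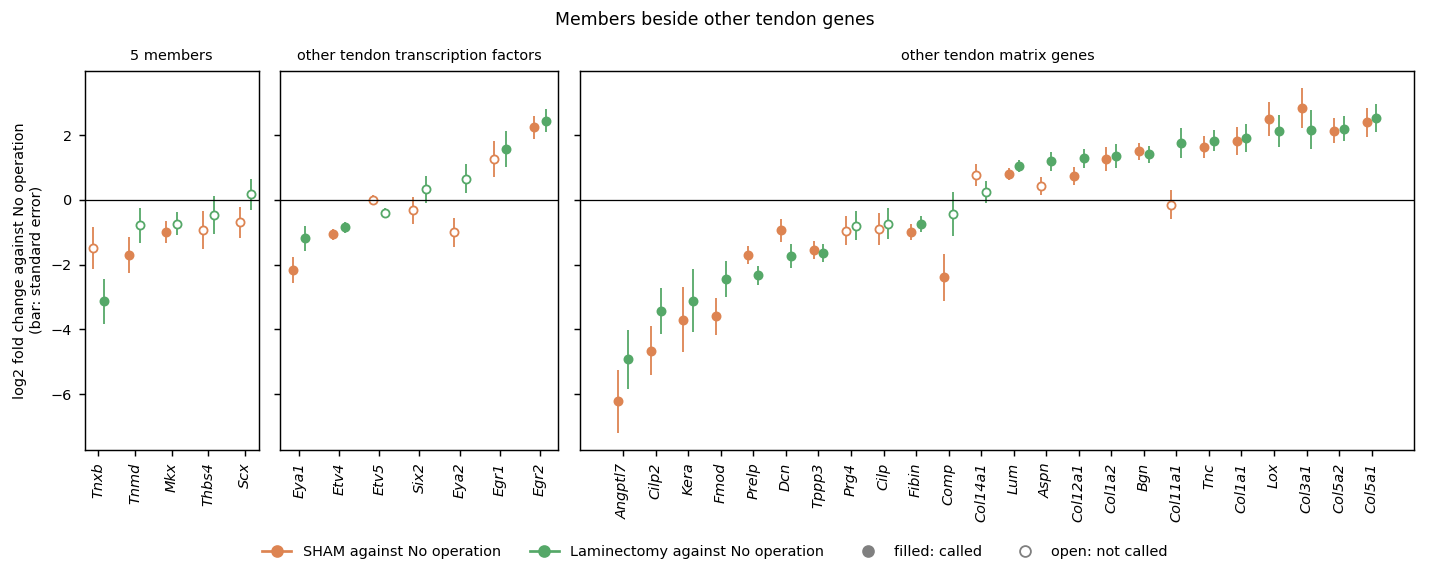
Log2 fold change against No operation (vertical, with the standard error as a bar) of the 5 genes, 7 other tendon transcription factors and 24 other tendon matrix genes (horizontal), for SHAM and for Laminectomy libraries. Filled points are called genes. The matrix genes run from −6.22 (*Angptl7*) to 2.84 (*Col3a1*), both in SHAM libraries.

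Signals that act on tendon cells were measured in the same libraries. Of 17 tested genes, 4 rose and 4 fell in SHAM libraries, and 4 rose and 3 fell in Laminectomy libraries, shares that are close to or below the 25.7% and 25.1% of all genes called higher and lower in SHAM and the 24.2% and 24.4% in Laminectomy libraries. Myostatin (*Mstn*), made by muscle and known to act on tendon cells, fell by 4.89 and 3.93 on the log2 scale (edgeR adjusted p = 0.000155 and 0.000531). *Bmp4* fell by 3.15 and 2.60 (edgeR adjusted p = 3.27e-06 and 1.02e-05), and *Smad3*, which transmits TGF-β signals and partners scleraxis, by 0.79 and 0.81 (edgeR adjusted p = 0.00127 and 0.00114). *Tgfb1* rose by 1.58 and 1.36 (edgeR adjusted p = 0.000161 and 0.000512). The receptor gene *Tgfbr2* and the stretch channel gene *Piezo1* rose in SHAM libraries by 1.03 (edgeR adjusted p = 0.00187) and 0.92 (edgeR adjusted p = 5.43e-05). In Laminectomy libraries *Piezo1* rose by 0.92 (edgeR adjusted p = 7.32e-05), and *Tgfbr2* was at 0.31 (edgeR adjusted p = 0.245). *Piezo2* and *Tgfb3* rose in Laminectomy libraries by 1.19 (edgeR adjusted p = 0.000940) and 1.00 (edgeR adjusted p = 0.0111), beside 0.47 and 0.14 in SHAM libraries (edgeR adjusted p = 0.0918 and 0.693). Between Laminectomy and SHAM edgeR called none of these 17 genes, whereas DESeq2 called 2 higher and 1 lower, beside 2.11% of all genes higher and 2.24% lower by that tool. Among the other lists DESeq2 called 1 of 7 further transcription factor genes and 1 of 23 matrix genes higher and 3 of 8 helix-loop-helix and Iroquois genes lower in Laminectomy than in SHAM libraries, where edgeR called none.

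Marker lists of other tissues were counted by the same rule, under which 25.7% of all genes rose and 25.1% fell in SHAM libraries and 24.2% rose and 24.4% fell in Laminectomy libraries. Adipocyte markers summed to 1459 to 2642 CPM without operation, 39.4 to 1540 CPM after SHAM surgery and 4.87 to 168 CPM after laminectomy, and 6 of 6 fell in Laminectomy and 3 of 6 in SHAM libraries. Laminectomy replicate 1 was thus the lowest library for this sum as for *Tnxb*. Bone markers summed to 26.8 to 579, 28.8 to 158 and 680 to 1878 CPM and cartilage markers to 149 to 862, 16.1 to 145 and 217 to 1202 CPM, in the order No operation, SHAM and Laminectomy. *Chad* alone gave 119 to 774 CPM of the cartilage sum without operation and 13.4 to 59.1 CPM after laminectomy. The median log2 fold change of the cartilage markers was −0.74 in SHAM and 2.21 in Laminectomy libraries. Of 8 bone markers 0 rose and 1 fell in SHAM and 1 rose in Laminectomy libraries, and of 10 cartilage markers 1 rose and 2 fell in SHAM and 4 rose and 2 fell in Laminectomy libraries. Between Laminectomy and SHAM edgeR called none of them, and DESeq2 called 1 bone and 7 cartilage markers higher in Laminectomy libraries, beside 2.11% of all genes by that tool. DESeq2 also called 2 of 9 fibroblast and 2 of 2 keratinocyte markers lower in Laminectomy than in SHAM libraries, beside 2.24% of all genes. The cartilage sum, like *Tnmd* and *Scx*, was lowest in SHAM replicate 1. That library also had 131 CPM of keratinocyte markers and SHAM replicate 3 had 72.2 CPM, against 2.57 to 8.29 CPM in the others.

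Fibroblast markers summed to 12159 to 25163, 42295 to 59910 and 37734 to 43614 CPM in the same order. Of these 10 markers, 5 rose and 2 fell in SHAM and 3 rose and 4 fell in Laminectomy libraries, again beside 25.7% of all genes higher and 25.1% lower in SHAM and 24.2% and 24.4% in Laminectomy libraries. Leukocyte markers summed to 521 to 1901, 4108 to 7569 and 3242 to 5628 CPM, and 6 of 8 tested rose in each surgical group, with 1 fall in SHAM libraries. Endothelial markers, at 704 to 901, 541 to 761 and 497 to 757 CPM, had 0 rises and 2 falls of 6 in each surgical group. Schwann cell and perineurial markers, at 305 to 416, 228 to 746 and 177 to 912 CPM, had 1 rise of 7 in SHAM and 2 falls of 7 in Laminectomy libraries, where 2 rose and 2 fell without SHAM replicate 1 and Laminectomy replicate 1. Of 6 keratinocyte markers 2 could be tested and 1 rose in SHAM libraries, and 6 of 8 markers of regenerating muscle rose in each surgical group. No marker of these 10 lists was at 0 in every library of a group. The part of these tissues in the levels of the 5 tendon genes was not tested.

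**Figure D5:**
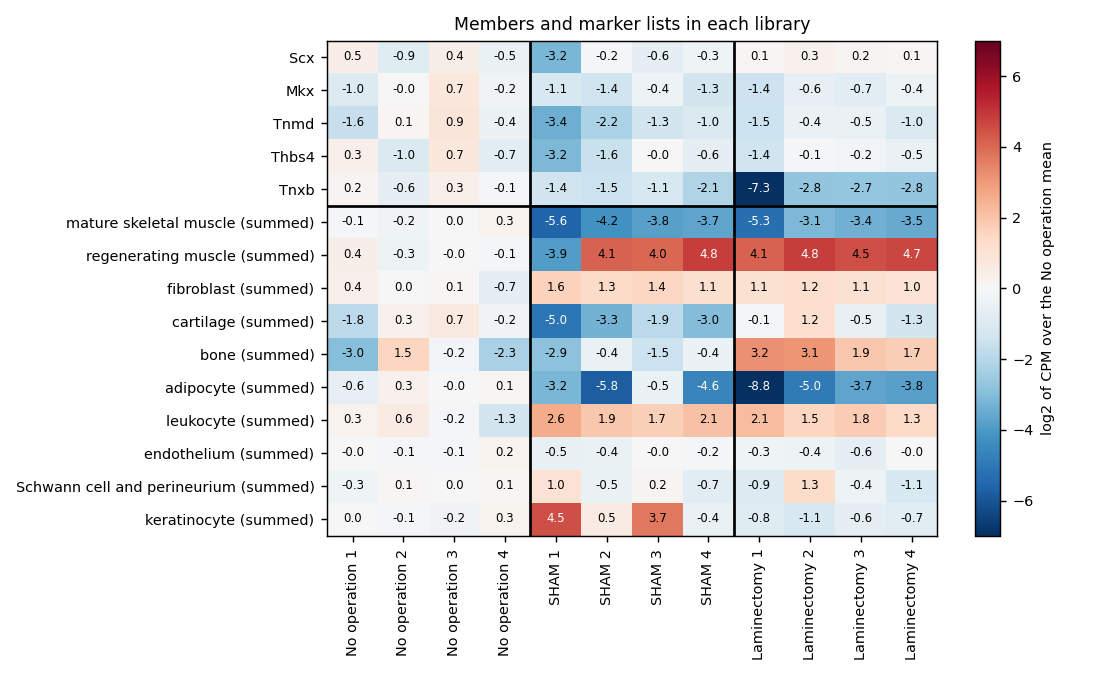
Log2 of CPM over the mean of the 4 No operation libraries for the 5 genes (upper rows) and for summed marker lists (lower rows) in each of 12 libraries (columns). Colour and the printed value give the same number, and the colour scale ends at 7. *Tnxb* is at −7.3 in Laminectomy replicate 1 and between −2.8 and −2.7 in the other Laminectomy libraries, and *Scx* is at −3.2 in SHAM replicate 1.

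For each of the 5, the genes whose log2 CPM ran closest to it across the 12 libraries were sought after removal of each gene's mean. The search covered 14021 genes with a mean of at least 1 CPM over the 12 libraries, so that single libraries can lie below it. The measure is the root mean square difference, and the 12 libraries share their group structure. *Scx* was closest to *Six2* (0.382), a homeobox gene of the tendon list above, then to *Lrrn1* (0.391) and *Ncald* (0.396). Like *Scx*, these were lowest in SHAM replicate 1, at 0.450, 3.71 and 2.53 CPM, so that this library bears on the closeness. The genes named below for *Tnmd* and *Thbs4* were lowest there as well. The measure was not repeated without that library. *Thbs4* ranked 44th for *Scx*, and *Scx* ranked 9th for *Thbs4* (0.580). *Mkx* was closest to *Glcci1* (0.304), *Pamr1* (0.306) and *Raver2* (0.311). *Tnmd* ran with the matrix gene *Emilin3* (0.366), the iron reductase gene *Cybrd1* (0.368) and the procollagen protease gene *Adamts3* (0.416). *Thbs4* was closest to *Musk* (0.503), which encodes a receptor of the neuromuscular junction, *Cilp* (0.508) and *Syn2* (0.532).

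*Tnxb* was closest to *Clec3b*, the tetranectin gene, at a root mean square difference of 0.546, then to *Ntrk2* (0.760) and the mast cell protease gene *Mcpt4* (0.771). Without operation *Clec3b* stood at 102, 96.5, 168 and 159 CPM. SHAM libraries had 72.7, 82.0, 63.8 and 28.2 CPM of it, and Laminectomy libraries 2.33, 24.5, 36.1 and 40.3 CPM. Its lowest value, like that of *Tnxb*, was in Laminectomy replicate 1, but SHAM replicate 4 lay below Laminectomy replicates 3 and 4, so that those groups overlapped. *Mcpt4* was at 0.0529 CPM in that library and at 1.35 to 2.21 CPM in the other Laminectomy libraries. None of the other 4 members was near *Tnxb* on this measure.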

How the data were processed

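RNA of mouse paraspinal tissue was sequenced in 12 stranded polyA libraries. Per the methods and the submitters' processing notes, reads were aligned with STAR 2.6.1b to GRCm38 (mm10) and counted per gene with featureCounts 2.0.1 at default settings. The authors deposited unnormalized values that behave as estimated counts, since 10.22% of them, in 2933 of 18996 genes, are not whole. The step that made them so is not given in the sources used here. All values of the 5 members were whole. Values were rounded, 4231 genes were removed by filterByExpr, and TMM factors ran from 0.849 to 1.134. The 12 libraries were fitted together by group in edgeR 4.0.16 (R 4.3.3), with a biological coefficient of variation of 28.3%. The methods give 3 mice per group for 4 libraries, so whether each library is a separate animal is open, and p-values measure the spread between libraries. DESeq2 1.42.0, other scalings, filters, thresholds, rounding, a replicate block and leaving out libraries were tried. CPM are counts over effective library sizes. Sequencing depth bears on counting error only, which is larger for genes with few reads.

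The 5 members and the gene lists were chosen with earlier results of these data known. Named were every member, up to 3 called genes with the largest rise and fall per tendon list and comparison with No operation, the 3 genes closest to each member across the libraries, and genes whose body overlaps a member. *Cnmd*, *Tnr* and the Laminectomy value of *Comp* were added after their values were seen. Gene positions and exon lengths came from GENCODE M21, and promoters from RefSeq. *Scx* and *Mkx* promoters were not used here, and 1 gene of the lists is not reported here. On simulated counts (14684, 14688 and 14674 genes for SHAM and Laminectomy against No operation and Laminectomy against SHAM), 100% of 100 genes changed by 2 on the log2 scale were recovered in each comparison, and 42%, 46% and 41% of those changed by 1, with 6, 4 and 8 other calls. Every simulated gene was given the same biological coefficient of variation, 28.3%. Within groups the SD of the 5 genes was 7.09 to 73.1% of the mean, so these shares do not give the sensitivity for them.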

Additional observations from a re-analysis of the deposited data

Results flagged for a closer look

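*Tnxb* in Laminectomy replicate 1, at 5.77 CPM, was separated from the next library of its group by 0.961 of the group's whole range, above Dixon's 95% critical value for 4 samples. It was the only such library among 15 groups (5 genes in 3 groups), of which chance flags about 1 in 20. The same library had 4.87 CPM summed over adipocyte markers. *Tnxb* was lower in Laminectomy than in No operation libraries with this library (log2 fold change −3.14) and without it (−2.74).

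*Scx* lay below the No operation mean in all 4 SHAM libraries and above it in all 4 Laminectomy libraries. The difference between the surgical groups, a log2 fold change of 0.86, was tested and did not pass (edgeR adjusted p = 0.406), with the adjusted p between 0.338 and 0.595 over the 23 alternatives.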

How the results depend on the processing

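Of 345 member fold changes under 23 alternatives, 330 kept direction and call, 9 lost a call, 5 gained a call and 1 turned. That was *Scx* in Laminectomy against No operation libraries, at −0.033 without No operation replicate 2 (edgeR adjusted p = 0.961), with a range of −0.033 to 0.36 on leaving out each library in turn. The cause was not tested. With a log2 fold change above 1 required, fewer genes were called by construction, 4589 in SHAM and 4323 in Laminectomy against No operation, and 1 member in SHAM. Scaling by library totals alone left 1 member called in SHAM, moved the median of all genes to 0.25 and 0.33 and raised the share of calls that were higher from 50.6% to 66.0% in SHAM and from 49.8% to 69.9% in Laminectomy libraries. It also gave 5 rises among the 8 relatives of the matrix members in each surgical group, and 8 rises among the 17 signal genes in Laminectomy libraries, beside 35.1% and 37.0% of all genes higher under that scaling. With it 7 of 10 cartilage markers rose and 1 fell in Laminectomy libraries, and 5 of 10 fibroblast markers rose and 4 fell there. In SHAM libraries 5 of 8 helix-loop-helix and Iroquois genes rose and 1 fell, and 0 of 6 endothelial markers fell. Shares of all genes lower were 18.1% in SHAM and 15.9% in Laminectomy libraries. DESeq2 called 696 genes between Laminectomy and SHAM, where edgeR called 0. It also gave 4 rises of the 8 relatives in Laminectomy libraries (2 by edgeR), 2 falls of them in SHAM (1 by edgeR), and 3 bone markers lower in SHAM and 3 higher in Laminectomy libraries (1 each by edgeR). By DESeq2 23.7% of all genes were higher and 22.8% lower in SHAM, and 23.3% and 21.7% in Laminectomy against No operation. Leaving out a library gave 0 to 3 members called in SHAM (0 without No operation replicate 3 or SHAM replicate 2, 1 without SHAM replicate 1 or 4, and 3 without Laminectomy replicate 1) and 1 to 2 in Laminectomy libraries (2 without No operation replicate 1). Over all genes these fits called 6966 to 7642 in SHAM and 6534 to 7416 in Laminectomy libraries, of 14876 to 14933 tested. The alternative without SHAM replicate 1 and Laminectomy replicate 1 was chosen after seeing the data. It called 2 members lower in SHAM (*Tnmd* and *Tnxb*) and 1 in Laminectomy libraries, beside 23.1% and 22.8% of all genes called lower.

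Same-numbered libraries of different groups had correlations of deviations from −0.23 to 0.35, and differently numbered libraries −0.45 to 0.35. These ranges overlap and cannot decide whether the numbers pair the libraries. With the replicate block edgeR called 7442 genes in SHAM and 7153 in Laminectomy against No operation (7502 and 7183 without it) and 0 between Laminectomy and SHAM, and 2, 1 and 0 members. At the depth of 31 reads for *Scx* in SHAM replicate 1, counting error adds to the spread between libraries.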
